A study of Mus musculus with 12 samples.

Results

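Junctophilins and the calcium release channels of the endoplasmic reticulum were followed in the adult mouse hippocampus after induced deletion of Rrn3 in neurons. The paper reports reduced pre-rRNA in the hippocampus of these mutants. The group holds 10 genes, the junctophilins Jph1 to Jph4, the ryanodine receptors Ryr1 to Ryr3 and the IP3 receptors Itpr1 to Itpr3. The family was chosen on the measured fall of 1 of them, Jph1, which was among the lowered transcripts of the mutants, so that every value of Jph1 between the genotypes is given here as a description without a test, while the other members came in by family name. All probes with a member's symbol in the platform annotation were taken, which gave 26 probes for 9 of the 10 genes among the 45135 probes and 19031 named genes of the array, and 20 of these 26 rose above background in 1 genotype or both. Itpr1, the main IP3 receptor of neurons, had no probe named for it here and was not analysed.

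In the TIF-IA CaMKCreERT2 mutants a Cre recombinase driven by the Camk2a promoter, which is active in forebrain excitatory neurons, is switched on by tamoxifen and deletes a floxed exon of Rrn3, which encodes TIF-IA, the factor that lets RNA polymerase I start rRNA transcription. RNA came from sectioned hippocampus of adult C57Bl/6N mice of both groups, 6 mutants and 5 control littermates, all given tamoxifen and killed 4 weeks later. The paper describes the controls as floxed animals without Cre, whereas the sample labels call them wildtype. Total RNA was measured on Illumina mouse whole-genome BeadChips, where a probe's signal is the mean brightness of its beads, and RNA of mutant 6 went onto 2 arrays that were averaged.

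Junctophilins are tethers: they are anchored in the endoplasmic reticulum, or the sarcoplasmic reticulum of muscle, and bind the inner face of the plasma membrane, so that channels on both sides of the narrow cleft between them can signal to each other. The partners inside the store are the ryanodine receptors, which open when calcium enters through the plasma membrane, and the IP3 receptors, which open when phospholipase C has produced IP3. Jph1 is known from skeletal muscle and Jph2 from heart, whereas Jph3 and Jph4 are the neuronal forms, and in hippocampal pyramidal cells they link calcium entry and ryanodine receptors to the potassium channels of the afterhyperpolarization.

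Before the members were compared, the arrays and the tissue were checked. Per array the median intensity was 83.1 to 107.5 in the mutants, against 87.2 to 107 in the controls, and 19193 to 21835 and 19621 to 21889 probes were detected in mutants and controls (detection p-value under 0.01). The number of animals limits the precision. The targeted gene Rrn3 had, at its probe above background, a log2 signal of 7.71 to 7.99 in the mutants, against 8.25 to 8.55 in the controls, and the log2 fold change was -0.55 (standard error 0.07) without overlap. The mean log2 signal of 5 pan-neuronal markers was 11.19 to 11.47 in the mutants, against 11.25 to 11.37 in the controls, although the named probe of Snap25 lay at background. Of 8 marker genes of hippocampal pyramidal and granule cells, 7 had a named probe, all above background, and 6 of these 7 had a negative fold change with a median of -0.27, none (0) at an unadjusted p under 0.05 in limma. Markers of choroid plexus and ependyma were shifted the other way, with 8 of 8 genes above 0 and a median log2 fold change of 0.76. All 4 oligodendrocyte markers (median 0.24) and all 5 markers of smooth muscle and pericytes (median 0.34) also had a positive value, and in each of these lists 0 genes passed an unadjusted p under 0.05. The part of these cell types in the values of the members was not tested.

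Markers of neighbouring tissue set 4 animals apart. The mean log2 signal of 5 striatal markers was 9.47 and 10.19 in mutants 2 and 4 and 10.59 and 11.12 in controls 3 and 4, against 6.69 to 8.58 in the other 7 animals, and 7 thalamic markers were highest in the same 4 animals, at 8.33 and 8.19 in these mutants and 7.96 and 9.04 in these controls. Summed on the linear scale, the striatal markers ran between 1598 and 12003 in the mutants and between 1102 and 20343 in the controls. The 8 choroid plexus and ependymal markers spread as widely, with a mean log2 signal of 5.82 to 10.09 in the mutants and 5.92 to 9.81 in the controls. Results for the members are therefore given also without the 4 animals, a choice made after seeing the data. Markers of skeletal and cardiac muscle, in which Jph1, Jph2, Ryr1 and Ryr2 are abundant, had a mean of 4.93 to 5.18 in the mutants, against 4.84 to 5.08 in the controls, and 5 of 10 genes (Myh1, Myh4, Ckm, Tnnt3 and Actc1) were not above background in any animal. Acta1, the actin of skeletal muscle, was detected in all 11 animals, at 8.40 to 9.41 in the mutants and 8.32 to 9.18 in the controls.

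Across the family most signals were lower in the mutants, but only that of Jph1 separated the genotypes. At the brightest probe of each gene, the one with the highest mean log2 signal, 8 of 9 members (7 of 8 without Jph1) had a negative log2 fold change, against 48.2% of all named genes. The median was -0.31 over the 9 members and -0.23 over the 8 without Jph1, against 0.01 over all named genes. Without the 4 animals with high striatal markers, the median over the 9 members was -0.19. The value of -0.31 is that of Jph2, whose probe was not above background in the mutants. Over the 8 members detected in at least 5 animals, Jph1 included, the median was -0.24. Over all probes, 21 of the 26 (19 of 24 without Jph1) were below 0, against 49.9% of the array. Some of these probes lay at background in mutants and controls alike, where the sign carries little weight. Probes of the same gene also share their animals, so the 26 signs are not independent. The choice of the family used the contrast of mutants and controls for Jph1, so its 2 probes are left out of the counts that follow. Mutants were lower without overlap at 0 of the other 24 probes (0.157% of all probes) and for 0 of the other 8 genes at the brightest probe (0.131% of genes). An unadjusted p under 0.001, the study's threshold, was reached in the lower direction by 0 of the 24 probes, against 0.031% of all probes, and after Benjamini-Hochberg adjustment over all probes 0 of the 24 passed 0.05, where 0.00222% of the array passed in the higher direction. At an unadjusted p under 0.05, limma placed 2 of the 24 probes lower, both of them of Ryr3, and 1 of Itpr2 higher, against 2.01% and 1.94% of the array. At the brightest probe 1 of the 8 genes, Ryr3, was lower, against 1.99% of genes, and 0 without control 4. Hippocampal RNA was measured in bulk, so fewer cells that express a gene and less of its RNA per cell cannot be told apart.

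**Figure D1:**
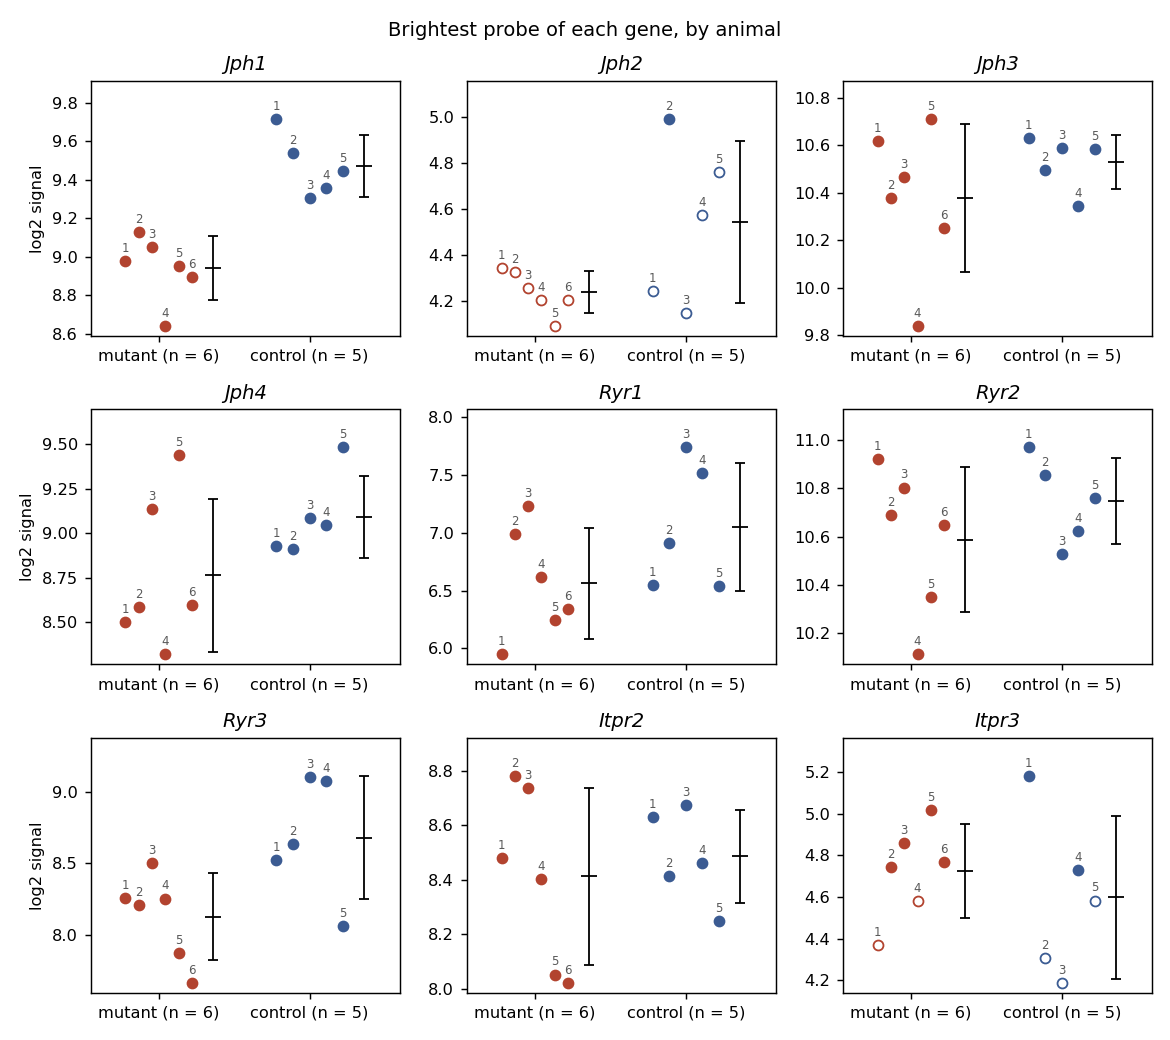
Log2 signal (vertical axes) at the brightest probe of the 9 probed genes in each mutant (red, n = 6) and each control (blue, n = 5); numbers are the animals, open symbols are animals not above background, and bars give the mean and SD. The mutants of Jph1 reach 9.13 at most while its lowest control is at 9.30; in the other 8 panels the genotypes overlap.

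Jph1, the tether of the triad junction in skeletal muscle, was lower in every mutant than in every control. At its brightest probe (ILMN_2585867) the log2 signals were 8.98, 9.13, 9.05, 8.64, 8.95 and 8.90 in mutants 1 to 6 and 9.72, 9.54, 9.30, 9.36 and 9.44 in controls 1 to 5. The mutants averaged 8.94 ± 0.17 (SD, n = 6) and the controls 9.47 ± 0.16 (SD, n = 5), which is a log2 fold change of -0.53 (standard error 0.10) and leaves 69.2% of the control signal. The gap between the groups was narrow, lying between mutant 2 and control 3, both of them among the animals with high striatal markers. Without those 4 animals the fold change was -0.60 (standard error 0.09), and with the striatal marker mean as a covariate it was -0.54 (standard error 0.08). The 2 arrays of mutant 6 differed by 0.38 at this probe. Animals numbered in the 200s (3 mutants and 4 controls) gave -0.43 and those in the 300s (3 mutants and 1 control) gave -0.61. A dimmer probe of Jph1 (ILMN_1217728), detected in 3 of 6 mutants and 4 of 5 controls, averaged 4.58 ± 0.33 in the mutants, against 4.97 ± 0.58 in the controls, and there the groups overlapped, with 5 of 6 mutants below the control mean. The platform lists this dimmer probe under the RefSeq transcript of Jph1 and the brightest probe under a separate cDNA record. The separation of the genotypes thus rests on the probe of that cDNA record alone.

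Jph2, the cardiac junctophilin, was at the limit of detection. Its brightest probe (ILMN_2628875) was above background in 0 of 6 mutants and in 1 of 5 controls, so no fold is established. Each mutant array was also set to the probe's own signal or to the lowest detected one, whichever was higher. The mean was then 1.07-fold lower in the mutants. The other controls were not above background either, so this value is not a lower limit on the change. The measured means were 4.24 ± 0.09 in the mutants, against 4.54 ± 0.35 in the controls, and limma gave an unadjusted p just above 0.05 and an adjusted p of 0.996 (exact two-sided permutation test, p = 0.0779). The call depended on the animals: an unadjusted p under 0.05 in limma was passed without control 1, without control 3 and without the 4 animals with high striatal markers, and not when any other single animal was left out. The other probes of Jph2, ILMN_2438153 and ILMN_2628876, were above background in no animal and are given no fold.

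Jph3, which is expressed in neurons throughout the brain, was well detected and its genotypes overlapped almost completely. The log2 signals were 10.62, 10.38, 10.47, 9.84, 10.71 and 10.25 in mutants 1 to 6, against 10.63, 10.50, 10.59, 10.34 and 10.59 in the controls. Mutant 4 was the lowest of all animals and mutant 5 the highest. The log2 fold change was -0.15 (standard error 0.14, 95% interval -0.46 to 0.15), with a limma p of 0.297 before and 0.996 after adjustment (exact two-sided permutation test, p = 0.377). Without the 4 animals with high striatal markers it was -0.06 (standard error 0.12).

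Jph4, the other neuronal junctophilin, had means of 8.77 ± 0.43 in 6 mutants and 9.09 ± 0.23 in 5 controls (SD). Mutants 1, 2, 4 and 6 lay at 8.50, 8.59, 8.32 and 8.60, below the lowest control at 8.91, but mutants 3 and 5 lay at 9.14 and 9.44 within the range of the controls, whose signals were 8.93, 8.91, 9.09, 9.05 and 9.48. The groups thus overlapped through 2 mutants. The log2 fold change of -0.33 (standard error 0.20, 95% interval -0.76 to 0.11) did not pass in limma (p = 0.126, adjusted p = 0.996; exact two-sided permutation test, p = 0.175). Without mutant 5 it was -0.46 and past an unadjusted p under 0.05, and without the 4 animals with high striatal markers it was -0.19.

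**Figure D2:**
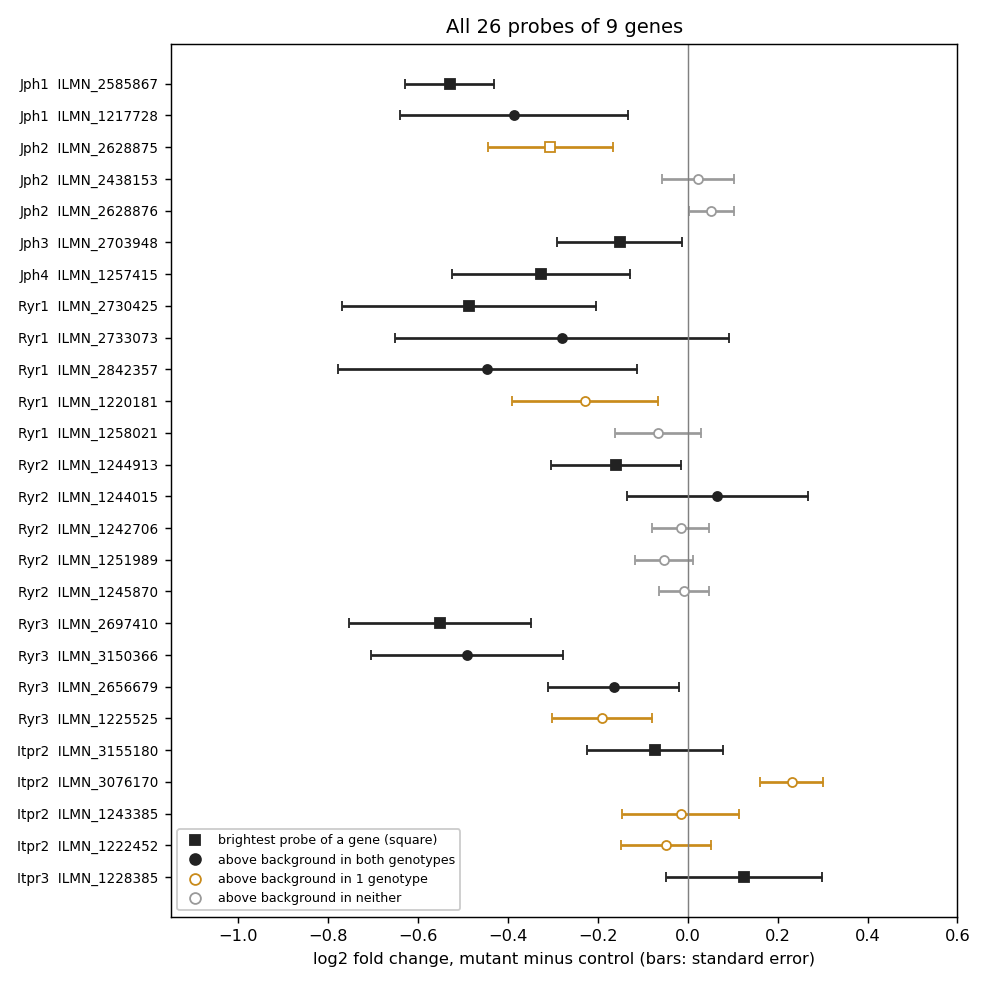
Log2 fold change, mutant minus control (horizontal axis), of all 26 probes, with standard errors from limma; squares mark the brightest probe of a gene and open symbols probes not above background in 1 or both genotypes. The brightest probes of Ryr3 (-0.55) and Jph1 (-0.53) lie farthest to the left, followed by a second Ryr3 probe and the brightest Ryr1 probe (both -0.49).

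Among the ryanodine receptors, the channels of calcium-induced calcium release, Ryr3 gave the lowest value. Ryr3, a form found in many brain regions including the hippocampus, had log2 signals of 8.26, 8.21, 8.51, 8.26, 7.88 and 7.67 in mutants 1 to 6 and of 8.53, 8.64, 9.10, 9.07 and 8.06 in controls 1 to 5 at its brightest probe (ILMN_2697410). All mutants lay below the control mean and 4 of 5 controls above the highest mutant, while control 5 lay within the mutants. The mutants averaged 8.13 ± 0.30 (SD, n = 6) and the controls 8.68 ± 0.43 (SD, n = 5), a log2 fold change of -0.55 (standard error 0.20), or 68.2% of the control signal. The unadjusted p was 0.0197 in limma and 0.0455 in the exact two-sided permutation test, and the adjusted p was 0.996, so that this difference did not survive correction over the array. A separate Ryr3 probe (ILMN_3150366) gave a similar value, -0.49 (standard error 0.21, limma p = 0.0413, adjusted p = 0.996; exact two-sided p = 0.0628), with means of 7.71 ± 0.34 in the mutants and 8.20 ± 0.44 in the controls. The probes share the animals and so are no replicates of each other. A dimmer probe (ILMN_2656679), detected in 4 of 6 mutants and 5 of 5 controls, gave -0.16 (standard error 0.15), and ILMN_1225525 was above background in 1 control alone.

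The Ryr3 difference was smaller without the 4 animals rich in both striatal and thalamic markers. Controls 3 and 4, the animals with the highest striatal markers, were also the highest for Ryr3. The fold change was -0.45 without control 3 and -0.45 without control 4, and in neither case past an unadjusted p under 0.05. Without the 4 animals with high striatal markers it was -0.33 (standard error 0.23), again not past that threshold, and with the striatal marker mean as a covariate it was -0.54 (standard error 0.19) and past it. The 200s animals gave -0.51 (standard error 0.17), whereas the 300s animals, with a single control, gave -0.13 (standard error 0.27).

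Ryr1, the release channel of skeletal muscle, was dim and variable. Its brightest probe (ILMN_2730425) had log2 signals of 5.95, 6.99, 7.23, 6.61, 6.25 and 6.34 in mutants 1 to 6 and of 6.55, 6.91, 7.74, 7.51 and 6.54 in controls 1 to 5. Here too controls 3 and 4 were the highest animals, and the mutants overlapped with the other controls. The log2 fold change was -0.49 (standard error 0.28, 95% interval -1.11 to 0.14; limma p = 0.113, adjusted p = 0.996; exact two-sided permutation test, p = 0.154). Without mutant 3 it was -0.62 and past an unadjusted p under 0.05, and without the 4 animals with high striatal markers it was -0.22 (standard error 0.29). Probes ILMN_2733073 and ILMN_2842357 gave -0.28 (standard error 0.37) and -0.45 (standard error 0.33). Of the other probes, ILMN_1220181 was above background in 0 of 6 mutants and in controls 3 and 4 alone. With the mutants set as for Jph2, its mean was 1.05-fold lower in the mutants. The measured signals did not differ past an unadjusted p under 0.05 (limma p = 0.186, exact two-sided permutation test, p = 0.288). ILMN_1258021 was above background in no animal.

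Ryr2, the cardiac form and the main ryanodine receptor of the forebrain, did not separate the genotypes. At its brightest probe (ILMN_1244913) the log2 signals were 10.92, 10.69, 10.80, 10.11, 10.35 and 10.65 in mutants 1 to 6, against 10.97, 10.86, 10.53, 10.62 and 10.76 in the controls. Mutants 4 and 5 were the lowest animals and the other 4 mutants lay within the controls. The log2 fold change was -0.16 (standard error 0.14, 95% interval -0.48 to 0.16; limma p = 0.290, adjusted p = 0.996; exact two-sided permutation test, p = 0.333), and its sign differed between the animal series, at 0.06 in the 200s and -0.39 in the 300s. Without the 4 animals with high striatal markers it was -0.18 (standard error 0.14). The dimmer probe ILMN_1244015 gave 0.07 (standard error 0.20) over all animals, 0.49 in the 200s and -0.44 in the 300s. The difference between the series was not tested. The other 3 probes of Ryr2 were above background in no animal.

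The IP3 receptors gave values close to 0. Itpr2, the form known from astrocytes, averaged 8.41 ± 0.33 in 6 mutants and 8.49 ± 0.17 in 5 controls (SD) at its brightest probe (ILMN_3155180). Its signals were 8.48, 8.78, 8.74, 8.40, 8.05 and 8.02 in mutants 1 to 6 and 8.63, 8.42, 8.67, 8.46 and 8.25 in controls 1 to 5, so that both the 2 highest and the 2 lowest animals were mutants. The log2 fold change was -0.07 (standard error 0.15, 95% interval -0.41 to 0.26; limma p = 0.638, adjusted p = 0.996; exact two-sided permutation test, p = 0.656) and turned to 0.0050 without mutant 6. It was -0.11 (standard error 0.20) without the 4 animals with high striatal markers.

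Another probe of Itpr2, ILMN_3076170, was the member probe nearest to the study's threshold apart from Jph1, although it lay at background. It was detected in mutant 6 alone. With each control set to its own signal or to the lowest detected one, whichever was higher, the mean was 1.02-fold higher in the mutants. This is not a lower limit on the change, since the other mutants were not above background. The measured means were 4.48 ± 0.13 in the mutants and 4.25 ± 0.07 in the controls (limma p = 0.00702, adjusted p = 0.996, exact two-sided permutation test, p = 0.0108). Without mutant 3, the lowest mutant at this probe, the probe passed an unadjusted p under 0.001. Without the 4 animals with high striatal markers it did not pass 0.05. The remaining probes of Itpr2, ILMN_1243385 and ILMN_1222452, were each above background in 1 mutant and no control and are given no fold. Itpr3, the form of epithelia and other peripheral tissues, was detected by its single probe (ILMN_1228385) in 4 of 6 mutants and 2 of 5 controls. Its means were 4.72 ± 0.22 in the mutants, against 4.60 ± 0.39 in the controls, and the log2 fold change was 0.13 (standard error 0.17, 95% interval -0.26 to 0.51; limma p = 0.486, adjusted p = 0.996; exact two-sided permutation test, p = 0.509), the only positive value among the brightest probes. Without the 4 animals with high striatal markers it was 0.06 (standard error 0.24).

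**Figure D3:**
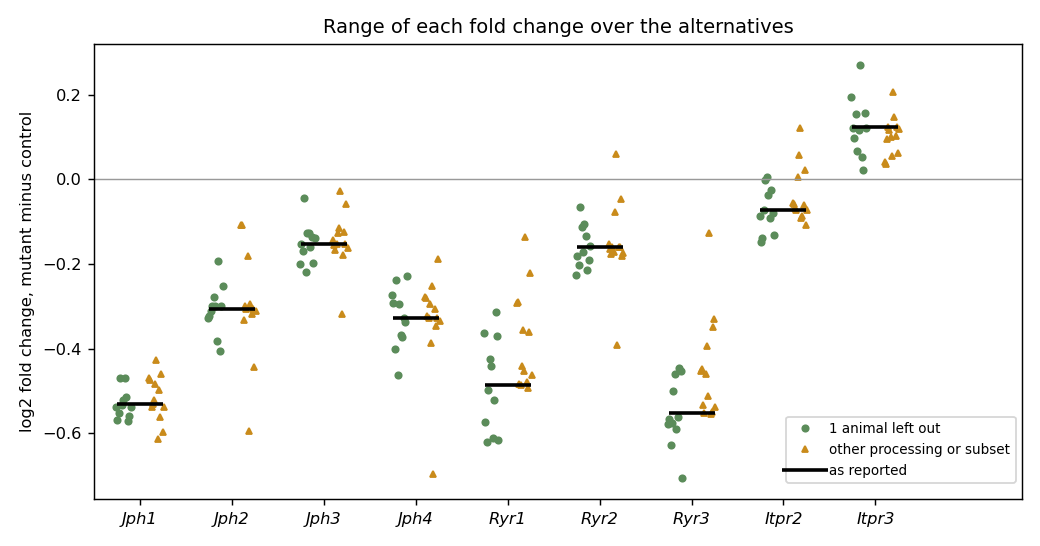
Log2 fold change, mutant minus control (vertical axis), of each member at its brightest probe when 1 animal is left out (green circles) and under other processing or subsets of animals (orange triangles); black bars are the values as reported. All values of Jph1 stay between -0.61 and -0.43, whereas those of Ryr2 and Itpr2 cross 0.

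The members were next compared among the animals after the mean of each genotype had been subtracted, a measure that the choice of the family did not use. Of 36 pairs of the 9 genes, 3 had an exact permutation p under 0.05 within genotypes and 0 passed after adjustment over the 36. Jph1 and Ryr2 varied together most closely, with Pearson's r = 0.80 (exact p = 0.00409, adjusted p = 0.147) and Spearman's rho = 0.78 (exact p = 0.00884) over 11 animals. The r was 0.62 without the 2 animals farthest from the median of Jph1, 0.72 in the 7 animals of the 200s and 0.47 in the 7 animals with lower striatal markers. Ryr1 and Ryr3 had r = 0.75 (exact p = 0.0173, adjusted p = 0.207) and rho = 0.69 (exact p = 0.0397), with 0.60 without the 2 farthest animals, 0.78 in the 200s and 0.53 in the animals with lower striatal markers. Ryr3 and Itpr2 had r = 0.71 (exact p = 0.00994, adjusted p = 0.179) and rho = 0.64 (exact p = 0.0336), but only 0.15 in the 200s, against 0.52 without the 2 farthest animals and 0.91 in the animals with lower striatal markers. The 300s hold too few animals for a value of their own.

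The striatal marker mean ran against Jph1, Ryr2 and Jph3. In 27 relations of the 9 members with the striatal, thalamic and choroid plexus means, 6 had an exact permutation p under 0.05 and 0 passed after adjustment. For Ryr2 and the striatal mean r was -0.71 (exact p = 0.00697, adjusted p = 0.188) and rho -0.69 (exact p = 0.0176), with -0.72 without the 2 farthest animals, -0.93 in the 200s and -0.76 in the 7 animals with lower striatal markers. For Jph1 r was -0.69 (exact p = 0.0262, adjusted p = 0.213) and rho -0.75 (exact p = 0.0195), with -0.60, -0.70 and -0.76 in the same subsets. For Jph3 r was -0.54 (exact p = 0.0283, adjusted p = 0.213) and rho -0.52 (exact p = 0.0847), with -0.63, -0.59 and -0.30, and with the thalamic mean r was -0.56 (exact p = 0.0473, adjusted p = 0.213) and rho -0.41 (exact p = 0.218), with -0.63, -0.75 and 0.07. Ryr3 varied in the same direction as the thalamic mean, at r = 0.68 (exact p = 0.0435, adjusted p = 0.213) and rho = 0.81 (exact p = 0.00814), with 0.68, 0.54 and 0.94 in these subsets. For Ryr1 and the thalamic mean r was 0.67 (exact p = 0.0410, adjusted p = 0.213) and rho 0.67 (exact p = 0.0414), with 0.56, 0.60 and 0.41. With the striatal mean, r was 0.48 for Ryr3 (exact p = 0.202) and 0.61 for Ryr1 (exact p = 0.0791). In the 7 animals with lower striatal markers these were -0.84 and -0.32. All of these points share their arrays and their dissections.

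**Figure D4:**
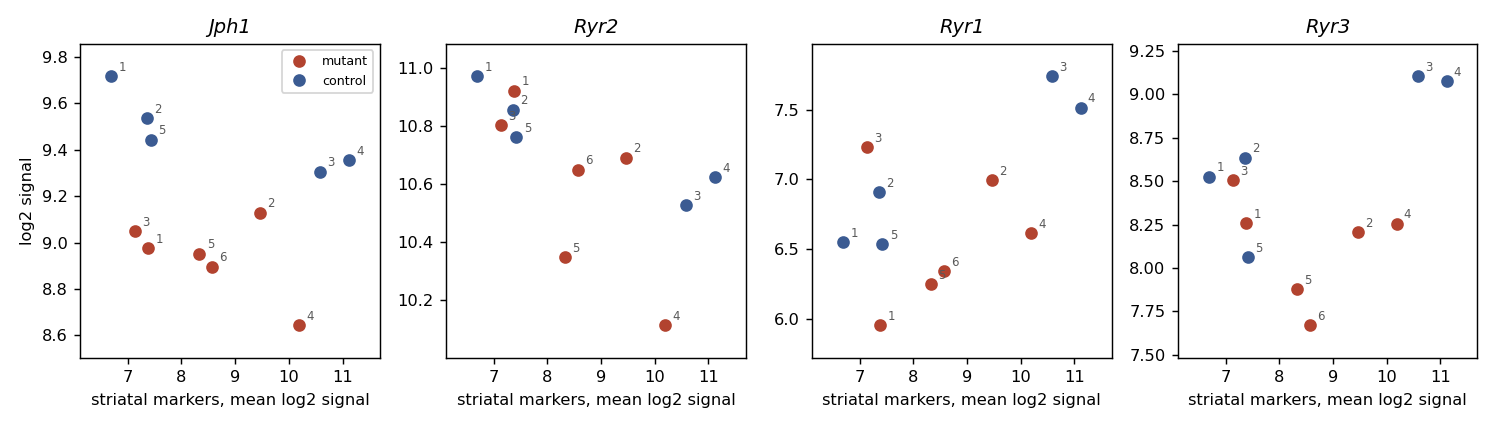
Log2 signal of 4 members at the brightest probe (vertical axes) against the mean log2 signal of 5 striatal markers (horizontal axes) in 6 mutants (red) and 5 controls (blue), numbered by animal. Every control lies above every mutant for Jph1, whereas for Ryr1 and Ryr3 the highest points are controls 3 and 4 at 10.59 and 11.12 on the horizontal axis.

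Around these channels works a larger set of proteins that place them, open or close them and fill the store, and 76 such genes were listed in 4 groups, of which 70 had a named probe and 59 were above background. None of the 70 (0) passed an unadjusted p under 0.001 at the brightest probe, against 0.0841% of named genes, and 2 were lower and 2 higher at an unadjusted p under 0.05, against 1.99% and 2.55% of named genes. The fold change was negative for 41 and positive for 29, with a median of -0.02, beside -0.23 over the 8 members without Jph1. The value of -0.23 still includes Jph2, for which no fold was established. None (0) passed after adjustment over all probes. The count of 4 at an unadjusted p under 0.05 depended on the animals: it was 0 without mutant 4, without control 1 and without the 4 animals with high striatal markers, 1 without control 4, and 2 without mutant 2, mutant 3 or control 2.

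Among the junctional partners of junctophilins, the plasma membrane channels and contact-site proteins, 11 of 14 had a named probe, 7 of them with a positive fold change, and the median was 0.08. Vapb, a tether of the endoplasmic reticulum to other membranes, averaged 10.29 ± 0.22 in the mutants and 10.04 ± 0.13 in the controls (log2 fold change 0.24, limma p = 0.0465, adjusted p = 0.996; exact two-sided permutation test, p = 0.0649). Its paralog Vapa gave -0.13 (exact p = 0.275). Kcnn1, a small-conductance potassium channel opened by calcium, averaged 7.14 ± 0.25 in the mutants and 7.41 ± 0.19 in the controls (-0.27, limma p = 0.0599, exact p = 0.0823).

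Regulators of the ryanodine receptors were measured for 16 of 17 genes, with 7 positive and 9 negative fold changes and a median of -0.01. Tmem38a, the potassium channel TRIC-A that balances charge across the store membrane while calcium leaves, averaged 8.78 ± 0.29 in the mutants and 9.09 ± 0.11 in the controls (log2 fold change -0.31, limma p = 0.0344, exact p = 0.0498). Srl, which encodes the luminal calcium-binding protein sarcalumenin, averaged 5.87 ± 0.39 in the mutants and 6.31 ± 0.28 in the controls (-0.43, limma p = 0.0445, exact p = 0.0693). In the other direction, Selenon, a redox protein of the endoplasmic reticulum that acts on ryanodine receptors and calcium pumps, averaged 9.23 ± 0.24 in the mutants and 8.91 ± 0.23 in the controls (0.32, limma p = 0.0380, exact p = 0.0519). The adjusted p was 0.996 for all 3.

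Neither the genes that produce IP3 and regulate its receptor nor those that fill the store passed an unadjusted p under 0.05 (0 of 23 and 0 of 20 measured genes, in limma). In the IP3 group, with a median of -0.02, the smallest p-values were those of Ncs1, a neuronal calcium sensor that binds IP3 receptors (6.66 ± 0.56 in the mutants and 6.11 ± 0.29 in the controls, log2 fold change 0.55, limma p = 0.0546, exact p = 0.0844), of Homer1, a scaffold between metabotropic glutamate receptors and IP3 receptors (-0.27, limma p = 0.146, exact p = 0.171), and of Plcb1, a phospholipase C, whose probe was above background in 1 control alone. Among the genes that fill and buffer the store the median was -0.08. Atp2a2, the calcium pump SERCA2 of neurons, averaged 13.24 ± 0.25 in the mutants and 13.43 ± 0.16 in the controls (-0.19, limma p = 0.154, exact p = 0.169). Calr, the luminal calcium buffer calreticulin, gave -0.27 (exact p = 0.195), and Stim1, the sensor of an emptied store, gave -0.08 (exact p = 0.167). The sign differed between the animal series for Homer1 (-0.54 in the 200s, 0.41 in the 300s) and for Calr (0.03 and -0.49). These differences between the series were not tested.

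**Figure D5:**
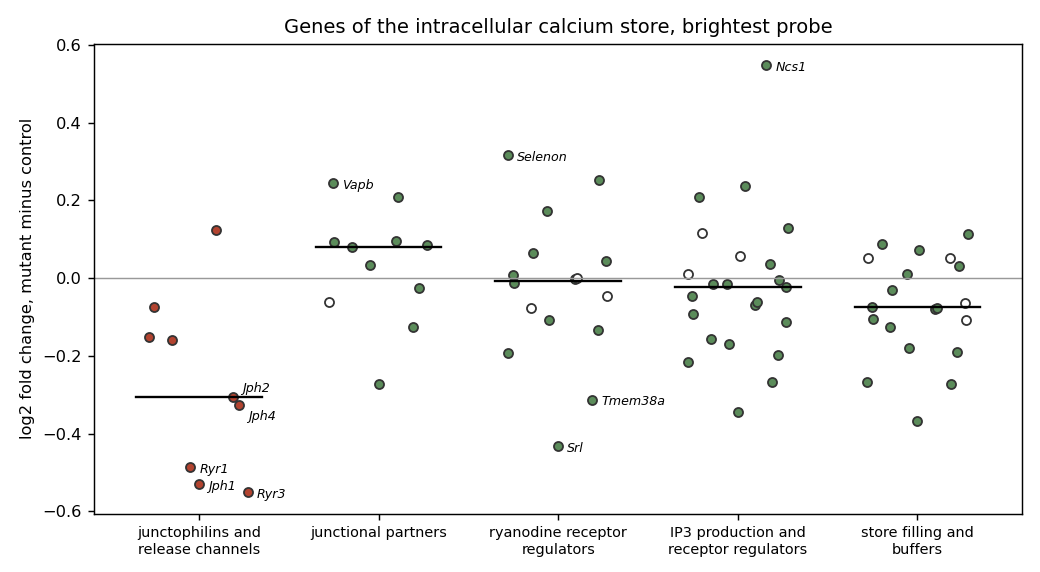
Log2 fold change, mutant minus control (vertical axis), at the brightest probe of the 9 members (red) and of 70 other genes of the calcium store in 4 groups (green; open symbols are above background in neither genotype), with the median of each group as a line. The members' median lies at -0.31 with Jph1 included (-0.23 without it) and those of the other groups between -0.08 and 0.08. Both medians of the members include Jph2, which was not above background in the mutants.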

How the data were processed

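The 12 arrays carried hippocampal RNA of 6 mutants and 5 controls. The authors deposited per array and probe an intensity (linear, without background subtraction or scaling) and a detection p-value, and also processed log2 values; their methods give background subtraction, quantile normalization, log2 and limma. The form of background subtraction behind the deposited log2 values is not given in the sources used here, and they were used as an alternative. Their rank correlation with the intensities was at least 0.9996 per array.

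Of 46089 lines, 954 without a probe name were left out. In limma 3.58.1 (R 4.3.3), neqc was run with an offset of 16, which subtracts background by normexp from the detection p-values, normalizes by quantiles and takes log2, the arrays of mutant 6 were averaged, and mutant minus control was fitted over all probes (lmFit, eBayes) with Benjamini-Hochberg adjustment. Background correction widens fold changes of dim probes. A probe counted as above background in a genotype if 1 animal or more had a detection p-value under 0.01. Exact permutation tests covered all 462 assignments of genotypes, and correlations all 86400 orders within genotypes. Marker means are over the brightest probes of each list.

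The platform annotation pairs 34773 probes with 1 symbol, 18 with several and 10344 with none; only the first were named, and 34695 matched the RefSeq table. Members, lists and tests were chosen with earlier results of these data known. Genes named beyond the members and Rrn3 are, for each list, those at an unadjusted p under 0.001 or else the 3 smallest p-values. The fit was tested on simulated data. Alternatives were other background correction and normalization, a detection filter, 1 animal left out, replicate number or animal number series as a block, each series alone, single arrays of mutant 6, the mean of a gene's probes and, added after seeing the data, 4 animals left out and a striatal covariate.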

Additional observations from a re-analysis of the deposited data

Results flagged for a closer look

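In 15 probes of the members, 14 of them detected in at least 5 animals and 1 the brightest probe of Jph2, 30 groups were searched for an animal far from the rest, and 1 stood out. At the Ryr1 probe ILMN_2842357, mutant 1 had a log2 signal of 4.68, against 5.98 in the next mutant and 6.63 in the highest, so that the gap made up 0.669 of the range of the 6 mutants. Chance flags about 1 in 20 groups. Mutant 1 was also the lowest animal at the brightest probe of Ryr1.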

How the results depend on the processing

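The fold change of Jph1 stayed negative under all alternatives run, from -0.61 to -0.43. Medians of members here include Jph1, on which the family was chosen, and are descriptions, while the counts leave it out. Of the other 24 member probes, 0 were lower at an unadjusted p under 0.001, against 0.031% of all probes. Without mutant 3, the Itpr2 probe ILMN_3076170 passed it in the higher direction. At an unadjusted p under 0.05, 1 of the 8 other members, Ryr3, was lower, against 1.99% of genes. Ryr3 passed that threshold in 9 of the 11 fits with 1 animal left out, Jph2 in 2, and Jph4 and Ryr1 in 1 each. The members' median of -0.31 was -0.15 without background correction, -0.16 with the deposited log2 values and -0.18 in the 200s alone. It was -0.19 without the 4 animals with high striatal markers, and ran between -0.37 and -0.19 when 1 animal was left out. The count of store genes (4) was 7 with the replicate block, 1 with the animal series as a block, 0 without the 4 animals with high striatal markers and 7 with the striatal covariate, and ran between 0 and 5 when 1 animal was left out; their median was 0.011 in the 300s alone and -0.070 over the mean of a gene's probes, and ran between -0.039 and -0.0047. The sign turned for Ryr2 in the 200s alone (0.061) and for Itpr2 without mutant 6 (0.0050), with the replicate block (0.0050), with the animal series as a block (0.057), in the 200s alone (0.12) and over the mean of its probes (0.023). Some of these settings also hold fewer animals, and the cause of the changes was not tested.

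Replicate numbers were not taken to pair the animals in the main fit. Same-numbered mutants and controls correlated at -0.05 to 0.56, and 3 of 5 mutants correlated best with their own number. These values do not settle whether the animals are paired. Mutant 6 has no control of its number and drops out of the block. With this replicate block, Ryr1 gave -0.44 and passed an unadjusted p under 0.05. Signals near background limit Jph2, Itpr3 and the dimmer probes, and the 300s hold 1 control, taken to vary as much as other animals.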
